A study of Mus musculus with 6 samples.

Results

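The Reg genes (regenerating islet-derived genes) encode small secreted proteins with a C-type lectin fold, and several are known as stress proteins of the pancreas. The 7 mouse genes Reg1, Reg2, Reg3a, Reg3b, Reg3d, Reg3g and Reg4 were taken by symbol from the 55401 gene identifiers of a count table, and each matched 1 identifier. Of these 7, 6 had counts in every library and passed a filter on low counts, and Reg4 had none. The table holds 6 libraries of pancreatic islets from male C57BL/6 mice aged about 20 weeks. The 3 KO libraries came from Pdgfra fl/fl mice with Pdx1-Cre, and the 3 control libraries from Pdgfra fl/fl mice without it. Pdgfra encodes platelet-derived growth factor receptor alpha, and both groups carry the floxed allele. Pdx1 is active in the progenitors of the whole pancreas, so Cre under its promoter is not limited to beta cells, and the effect of Cre itself cannot be told apart from that of the deletion. The titles number the mice, but nothing states that each number is an animal of its own, so the tests speak of the spread among these 6 libraries, which may be technical in part.

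Reg1 and Reg2 proteins are stored with digestive enzymes in the zymogen granules of acinar cells, the exocrine cells around the islets, and Reg1 is also called pancreatic stone protein or lithostathine. The Reg3 genes include those of the pancreatitis-associated proteins, which acinar cells make in quantity during acute pancreatitis, and of lectins that the intestine secretes against bacteria. Cytokines of the interleukin-6 and interleukin-22 groups, which act through the transcription factor Stat3, are known inducers of Reg3 genes. In islets, Reg transcripts have been described in regeneration, inflammation and diabetes, and islets isolated from the pancreas also bring acinar RNA with them.

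The libraries held 15026094 to 25299689 counts. Pdgfra had 93, 25 and 125 counts in KO 1, 2 and 3, against 42, 88 and 116 counts in control 1, 2 and 3. Its log2 fold change was -0.26 (SE 0.34, edgeR adjusted p = 0.869), and since counts are summed over all exons it gave no check of the labels. Although the labels name beta cells, acinar enzymes took 18.6% to 33.8% of counts in KO libraries and 24.4% to 43.6% in controls, while Ins1 and Ins2 together took 9.48% to 11.7% and 7.04% to 13.3%. The names of all 3 KO columns and of 0 control columns end in a suffix that the labels leave unexplained. The share of a ribosomal RNA locus was 5.36%, 12.6% and 18.5% in KO 1, 2 and 3, against 4.38%, 3.32% and 4.51% in control 1, 2 and 3. It was higher in each KO library than in any control, so this share and the suffix cannot be told apart from genotype. Counting error alone was small for the acinar enzymes and the Reg family as a whole. Their 95% Wilson intervals were no wider than ± 0.0251 and ± 0.00554 percentage points. For the low members it was large beside the share itself. Reg3a in KO 2, with 23 counts, took 0.000126% of counts, with a 95% Wilson interval of 8.4e-05% to 0.000189%.

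The 6 genes with counts lie together within 98.2 kb of chromosome 6 (GRCm38), in the order Reg3b (78370657 to 78373466, plus strand), Reg3d (78375874 to 78378865, minus strand), Reg3a (78380709 to 78383827, plus strand), Reg2 (78395623 to 78408106, plus strand), Reg1 (78422711 to 78428667, plus strand) and Reg3g (78466269 to 78468872, minus strand). Reg4, a gene known from the colon, lies apart on chromosome 3 (98222156 to 98236748, plus strand). No other annotated gene lay between the 6. Their transcripts are related in sequence. Reg1 and Reg2 shared 78.9% of aligned bases, Reg3a and Reg3b 75.5%, and Reg3b and Reg3g 74.4%. The longest run of identical bases between any 2 of the 6 transcripts was 35, between Reg3b and Reg3g. How multi-mapping reads were counted is not stated in the sources used here, so the split of reads between close relatives carries some uncertainty.

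Stretches upstream of 5 of these genes are shown because Reg1 varied with Reg3d and Reg3a with Reg3b, while Reg2 stood apart in 1 library. Each is the longest unbroken run outside annotated exons within the 250 bases before the start of the RefSeq transcript (GRCm38.p6), 5′ to 3′ on the strand of the gene. Capitals mark TTTCCC and CACCTG, forms of the boxes bound by the acinar transcription factor complex PTF1, and TTCNNNGAA, the core bound by Stat proteins, each on either strand.
Reg1, chr6:78425733-78425929, plus strand: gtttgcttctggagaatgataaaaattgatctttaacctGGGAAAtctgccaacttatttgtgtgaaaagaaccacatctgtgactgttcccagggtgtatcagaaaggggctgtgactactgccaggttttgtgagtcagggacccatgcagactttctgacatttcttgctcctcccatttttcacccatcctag
Reg3d, chr6:78378866-78379115, minus strand: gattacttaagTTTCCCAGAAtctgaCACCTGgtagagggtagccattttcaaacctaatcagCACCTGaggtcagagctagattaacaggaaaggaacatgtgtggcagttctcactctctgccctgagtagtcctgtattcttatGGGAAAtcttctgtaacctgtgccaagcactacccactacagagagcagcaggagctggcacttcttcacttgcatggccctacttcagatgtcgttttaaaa
Reg2, chr6:78404905-78405154, plus strand: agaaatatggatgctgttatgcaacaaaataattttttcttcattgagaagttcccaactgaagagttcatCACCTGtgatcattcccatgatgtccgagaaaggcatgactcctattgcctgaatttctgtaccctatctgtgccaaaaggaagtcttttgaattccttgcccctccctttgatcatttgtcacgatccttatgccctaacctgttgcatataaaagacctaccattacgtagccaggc
Reg3a, chr6:78380459-78380708, plus strand: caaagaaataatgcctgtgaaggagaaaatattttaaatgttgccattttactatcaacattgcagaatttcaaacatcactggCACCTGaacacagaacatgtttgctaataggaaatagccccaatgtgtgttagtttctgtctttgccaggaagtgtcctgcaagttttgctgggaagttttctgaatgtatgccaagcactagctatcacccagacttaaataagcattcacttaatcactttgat
Reg3b, chr6:78370707-78370860, plus strand: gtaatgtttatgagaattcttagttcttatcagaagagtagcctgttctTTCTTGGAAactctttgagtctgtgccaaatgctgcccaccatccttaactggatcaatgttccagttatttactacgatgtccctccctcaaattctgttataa

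Over the full 250 bases before the start, CACCTG occurred in 4 of the 6 chromosome 6 genes (Reg2, Reg3a, Reg3b and Reg3d), against 17.3% of 32536 mouse promoters of that length and 13 of 23 acinar enzyme promoters. TTTCCC occurred in Reg1, Reg3b, Reg3d and Reg3g, against 22.0% of all promoters and 8 of 23 acinar enzyme promoters. TTCNNNGAA occurred in Reg3b and Reg3d, against 7.04% of all promoters and 2 of 23 acinar enzyme promoters, and in Reg3d it overlapped a TTTCCC match. The CACCTG and TTTCCC matches of Reg3b fall in an annotated exon and are not in the stretch above. These are matches of letters and not measured binding. GENCODE starts Reg1, Reg2 and Reg3b further upstream than the RefSeq transcripts used here, and those starts were not examined.

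Reg1 was by far the most abundant member. Per length, in RPKM (CPM divided by exon length in kilobases), Reg1 stood at 5229 ± 1787 in KO and 8863 ± 4188 in controls (SD, n = 3 each). Reg2 followed at 437 ± 355 RPKM in KO and 1207 ± 757 in controls. Reg3d stood at 111 ± 41.0 RPKM in KO and 229 ± 98.3 in controls, and Reg3b at 64.7 ± 47.4 and 128 ± 106. Reg3a, at 5.49 ± 3.91 RPKM in KO and 10.6 ± 6.13 in controls, and Reg3g, at 1.82 ± 1.32 and 2.86 ± 1.51, were low. The level of Reg1 exceeded that of Reg2 in 6 of 6 libraries, that of Reg3b exceeded Reg3a in 6 of 6, and that of Reg3a exceeded Reg3g in 6 of 6. Reg2 exceeded Reg3d in 5 of 6 libraries and Reg3d exceeded Reg3b in 5 of 6, so these neighbours in the order were not separated in every library. The exon lengths used were 2114 bases for Reg3g, 1142 for Reg3b and 952 for Reg2. Their longest protein-coding transcripts have 771, 783 and 698 bases. By counts, Reg3g exceeded Reg3a in KO 1 (177 against 107) and KO 2 (34 against 23), so their order in RPKM rests on the length used. Reg4 had 0 counts in all 6 libraries, which allows a level of at most 0.119 to 0.200 CPM per library (3 counts), where CPM are counts scaled to a library of 1000000.

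All 6 measured Reg genes averaged lower in KO than in control libraries, but 0 of the 6 passed the test over all genes. The test was edgeR's quasi-likelihood test at an adjusted p under 0.05, which called 10 of 14212 genes, or 0.0704% (0.0633% lower and 0.00704% higher in KO). Of all tested genes 52.2% were lower in KO, and the 6 Reg genes share their libraries, so their directions are not independent of each other. In CPM, 0 of the 6 had groups that did not overlap, against 13.9% of all tested genes in either direction. As a plain share of all counts, with no TMM factor (a scale added after the data were seen), the groups of Reg2 and Reg3d did not overlap (5.21% of all tested genes were lower in KO without overlap on that scale), so this count depends on the scaling. In bulk RNA, fewer cells of a type and less RNA per cell cannot be told apart. Control 1, the library with the most acinar RNA, was the highest library for each of the 6.

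**Figure D1:**
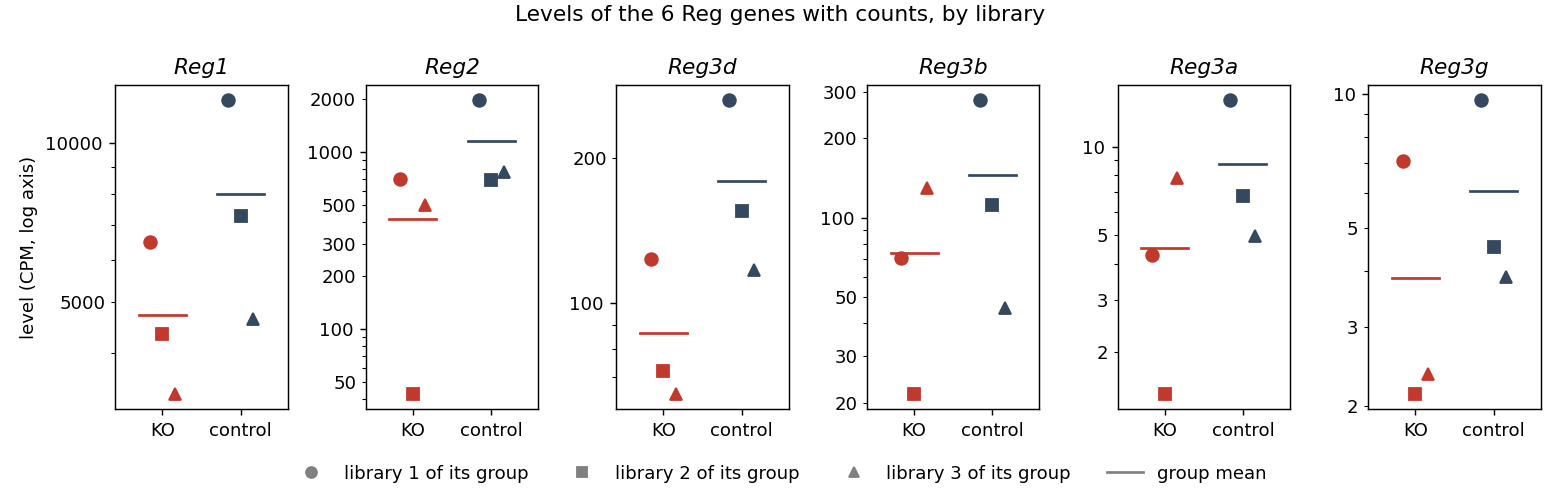
Levels in CPM (log axis, its range set for each gene) of the 6 Reg genes with counts, KO left of control in each panel. Each point is a library and each line a group mean. Control 1 is the highest library in every panel, and KO 2 stands far below the other libraries for Reg2, at 42.5 CPM.

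Reg1 had levels of 6498, 4347 and 3336 CPM in KO 1, 2 and 3, against 12109, 7284 and 4643 CPM in control 1, 2 and 3. KO 1 lay above control 3, so the groups overlapped. By edgeR the log2 fold change was -0.76 (SE 0.38) with an adjusted p of 0.725 and a 95% interval of -1.62 to 0.09. Without control 1 it was -0.34.

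Reg3d, a relative of the islet neogenesis-associated protein of hamsters, had levels of 123, 72.0 and 64.4 CPM in KO 1, 2 and 3, against 265, 155 and 117 CPM in control 1, 2 and 3. Only KO 1 reached into the range of the controls, just above control 3. Its log2 fold change of -1.04 (SE 0.315, 95% interval -1.75 to -0.34) had the smallest p of the family, at 0.00849 unadjusted and 0.542 after adjustment by edgeR over all genes. An unadjusted p under 0.05 was reached by 7.37% of tested genes and by 1 of the 6 Reg genes. Without control 1 the log2 fold change was -0.65, and without KO 1 it was -1.39.

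Reg2 had levels of 701, 42.5 and 503 CPM in KO 1, 2 and 3, against 1980, 696 and 770 CPM in control 1, 2 and 3. KO 2 was far below all others, and KO 1 lay level with control 2. By edgeR the log2 fold change was -1.47 (SE 0.774) with an adjusted p of 0.73 and a 95% interval of -3.21 to 0.28. Without KO 2 it was -0.93 (SE 0.434), in a fit that called 0 of the 6 Reg genes and 0.0136% of all tested genes, and without control 1 it was -0.82.

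Reg3b, also known as pancreatitis-associated protein 1, had levels of 70.6, 21.5 and 129.7 CPM in KO 1, 2 and 3, against 280, 112 and 45.5 CPM in control 1, 2 and 3. The groups were interleaved, with KO 3 second highest of the 6 libraries. By edgeR the log2 fold change was -0.97 (SE 0.671) with an adjusted p of 0.777 and a 95% interval of -2.47 to 0.54, and it was -0.08 without control 1 and -0.54 without KO 2. Reg3a had levels of 4.28, 1.43 and 7.87 CPM in KO 1, 2 and 3, against 14.5, 6.81 and 4.97 CPM in control 1, 2 and 3. Its libraries were ordered much like those of Reg3b, and its log2 fold change was -0.86 (SE 0.52, edgeR adjusted p = 0.745), with -0.32 without control 1 and -0.47 without KO 2. Reg3g, which encodes an intestinal lectin directed at Gram-positive bacteria, had 177, 34 and 62 counts in KO 1, 2 and 3, against 121, 78 and 118 counts in control 1, 2 and 3. Its log2 fold change was -0.57 (SE 0.485, edgeR adjusted p = 0.808), with -0.10 without control 1 and -1.39 without KO 1.

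**Figure D2:**
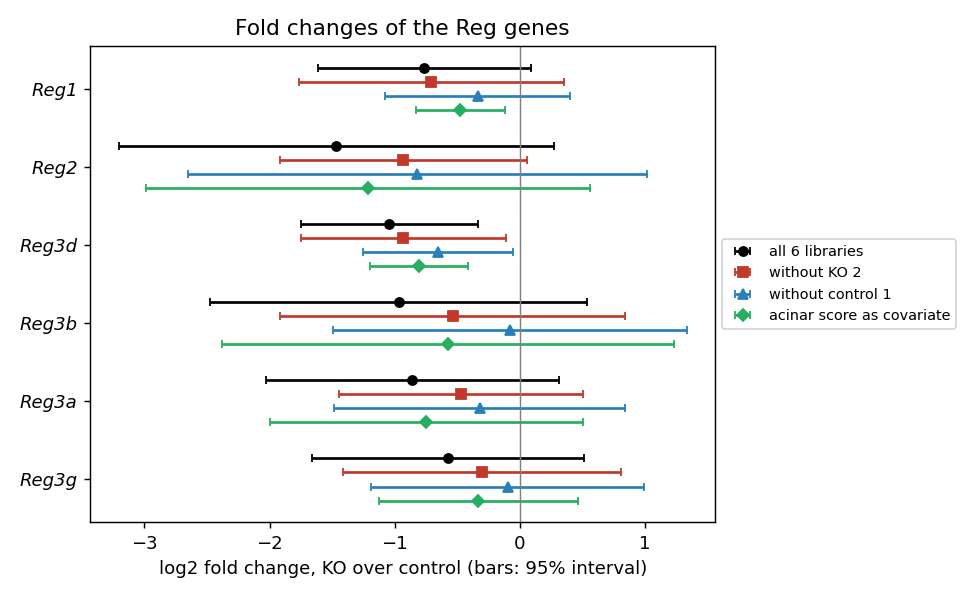
Log2 fold changes, KO over control, of the 6 Reg genes in edgeR fits of all 6 libraries, without KO 2, without control 1, and with the acinar score as a covariate. Bars are 95% intervals. All points lie below 0, and the values move toward 0 when control 1 is left out, as for Reg3b at -0.08.

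The family's share of counts averaged lower in KO, with overlap between the groups. Reg genes took 0.761%, 0.394% and 0.425% of counts in KO 1, 2 and 3, against 1.22%, 0.873% and 0.671% in control 1, 2 and 3. KO 1 lay above control 3. The means were 0.527 ± 0.203% in KO and 0.920 ± 0.276% in controls (SD, n = 3 each), and the exact permutation test, two-sided, gave p = 0.2, where 3 against 3 can go no lower than 0.1. Acinar enzymes took 33.8%, 30.0% and 18.6% in KO 1, 2 and 3, against 43.6%, 33.5% and 24.4% in control 1, 2 and 3, and these shares overlapped (exact two-sided permutation p = 0.5). KO 1 and control 2, with acinar shares of 33.8% and 33.5%, had Reg shares of 0.761% and 0.873%.

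**Figure D3:**
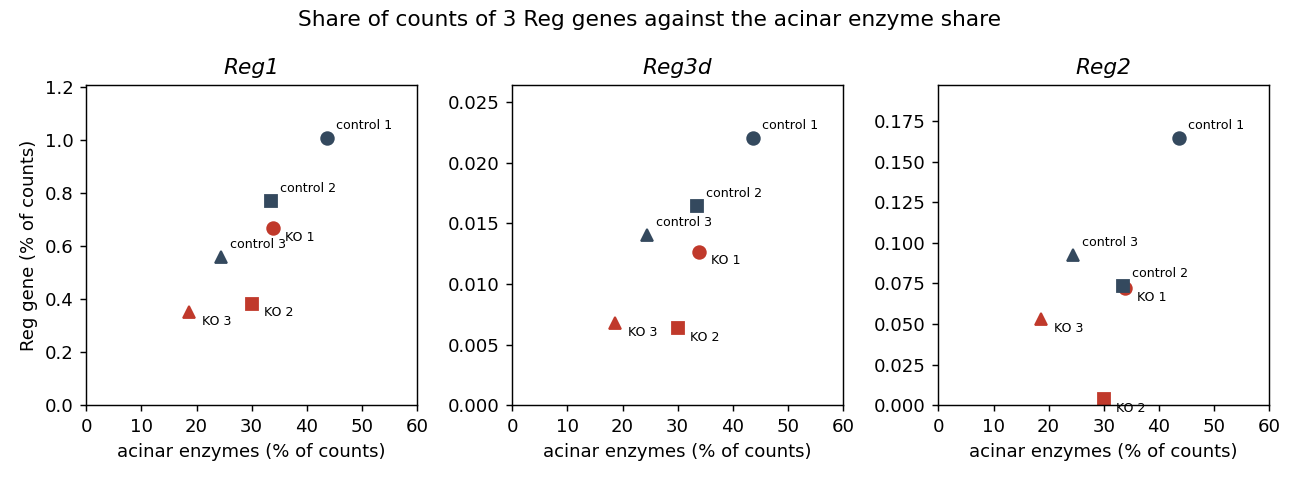
Share of counts of Reg1, Reg3d and Reg2 against the share of the acinar enzymes, in percent of all counts. Each point is a library, red for KO and dark blue for control. KO 1 and control 2 have nearly the same acinar share, at 33.8% and 33.5%, and for Reg2 KO 2 lies near 0 at an acinar share of 30.0%.

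Set against the acinar enzymes of the same library, Reg1 was nearly the same in all controls and lower in each KO library. There were 19.7, 12.7 and 18.8 Reg1 counts per 1000 acinar enzyme counts in KO 1, 2 and 3, against 23.1, 23.0 and 22.9 in control 1, 2 and 3. The means were 17.1 ± 3.81 in KO and 23.0 ± 0.0918 in controls (SD, n = 3 each), a log2 difference of -0.45. The groups did not overlap, and the exact two-sided permutation p of 0.1 is the smallest that 3 against 3 can give (0.3 adjusted by Benjamini-Hochberg over the 6 genes). Without KO 2 the log2 difference was -0.25. The evenness of the controls varied with the denominator. Per 1000 counts of the acinar enzymes without trypsins, Reg1 stood at 25.9 ± 0.186 in controls (SD). Per 1000 counts of 5 single-copy enzymes it stood at 44.1 ± 0.727, and the groups did not overlap with either. Reg3d had 0.375, 0.211 and 0.364 counts per 1000 acinar enzyme counts in KO 1, 2 and 3, against 0.505, 0.489 and 0.577 in control 1, 2 and 3. Its groups did not overlap either, with a log2 difference of -0.77 (exact two-sided permutation p = 0.1, 0.3 adjusted), which was -0.50 without KO 2. With this ratio 52 of 14212 tested genes, or 0.366%, were lower in KO without overlap, and so were Reg1 and Reg3d, 2 of the 6 Reg genes. In either direction 0.964% of all tested genes separated, against 13.9% by CPM. The denominator itself varied widely, from 18.6% to 33.8% of counts in KO and from 24.4% to 43.6% in controls. A gene that does not follow acinar RNA therefore tends to overlap by this ratio. The share of all genes is thus a poor background for Reg genes that follow acinar RNA.

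The acinar genes themselves moved unevenly by the same measure. Each enzyme was set against the sum of the others, and 4 of the 27 tested enzymes (Pnlip, Pnliprp2, Pla2g1b and Try4) were lower in KO without overlap, while Amy1 and Ctrc were higher. Of 17 other acinar genes, 0 separated. The median log2 difference of these 44 acinar genes was 0.04, and the lowest was -0.61, for the trypsin gene Prss1. Reads of trypsin genes can be split between near-identical copies, and whether this affected Prss1 was not tested. Reg1, at -0.45, had 1 of the 44 below it, and Reg3d, at -0.77, had 0. The Reg genes whose groups overlapped ranked alike, with 0 below Reg2, Reg3a and Reg3b and 1 below Reg3g. These ranks include KO 2 and were not repeated without it, where Reg1 was at -0.25 and Reg3d at -0.50. Among controls, the highest ratio of Reg1 was 1.01 times the lowest, where the median acinar enzyme had 1.13 times, and 1 of the 27 enzymes was as even as Reg1 in those 3 libraries. In KO, the highest ratio of Reg1 was 1.55 times the lowest.

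**Figure D4:**
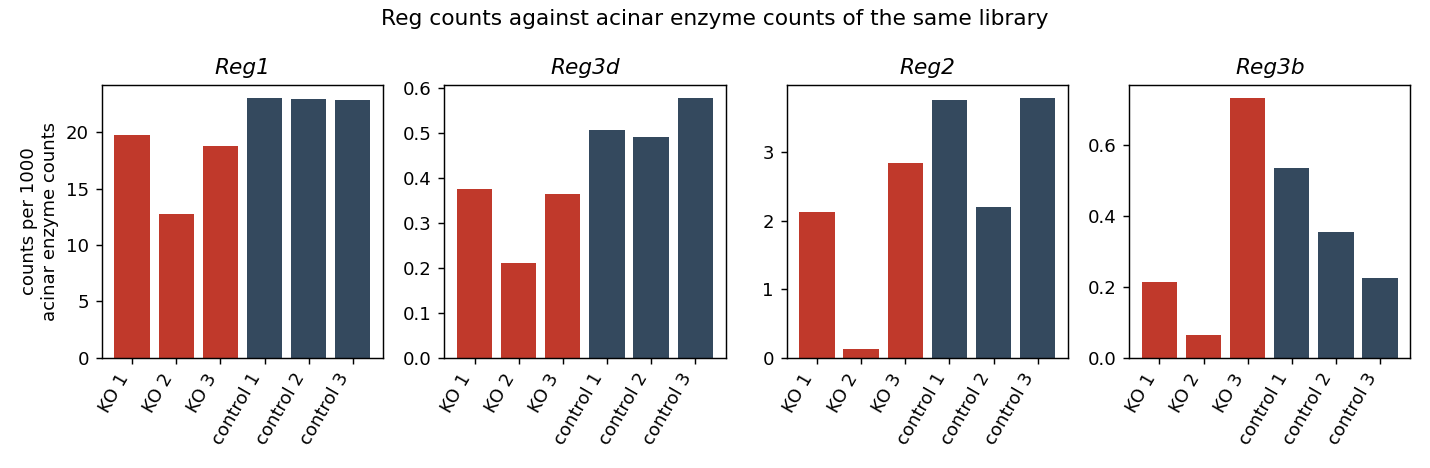
Counts of Reg1, Reg3d, Reg2 and Reg3b per 1000 acinar enzyme counts in each library, KO bars left of control bars and each axis starting at 0. Reg1 lies between 22.9 and 23.1 in the controls and between 12.7 and 19.7 in KO, while Reg3b is interleaved.

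The other 4 genes overlapped between groups by this ratio. Reg2 had 2.13, 0.124 and 2.84 counts per 1000 acinar enzyme counts in KO 1, 2 and 3, against 3.77, 2.20 and 3.79 in control 1, 2 and 3 (exact two-sided permutation p = 0.2, 0.4 adjusted). Its log2 difference of -1.79 was -0.36 without KO 2. Reg3b had 0.214, 0.0630 and 0.732 in KO 1, 2 and 3, against 0.533, 0.353 and 0.224 in control 1, 2 and 3 (exact two-sided permutation p = 0.6). Its log2 difference of -0.70 turned to 0.19 without KO 2. Reg3a and Reg3g had log2 differences of -0.86 and -0.50 (exact two-sided permutation p = 0.5 and 0.6), and both differences were -0.02 without KO 2.

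With the acinar score, the centred mean log2 CPM of the tested acinar enzymes, as a covariate in the edgeR fit, the log2 fold change of Reg1 was -0.47 (SE 0.16, adjusted p = 0.458) and that of Reg3d -0.81 (SE 0.18, adjusted p = 0.163). Those of Reg2, Reg3a, Reg3b and Reg3g were -1.22, -0.75, -0.57 and -0.33, with adjusted p from 0.749 to 0.894. This fit called 48 genes, or 0.338%, and none of the 6. With the covariate the standard error was smaller for Reg1, Reg3d and Reg3g (0.38, 0.315 and 0.485 without it) and larger for Reg2, Reg3a and Reg3b (0.795, 0.56 and 0.809 with it, 0.774, 0.521 and 0.671 without). Across the 6 libraries, Reg1 had a Pearson r with the acinar score of 0.86 (exact permutation p = 0.0417, 0.25 adjusted over 6 genes) and a Spearman rho of 0.60 (exact permutation p = 0.242, 0.725 adjusted). Without KO 3 and control 1, the libraries farthest from the median score, its r was 0.34. With a score without trypsin genes, whose farthest libraries are KO 3 and control 3, r was 0.72 after leaving those out, so the outcome of this check depends on the list. For Reg3d, r was 0.71 (exact permutation p = 0.108, 0.272 adjusted) and rho 0.60 (exact permutation p = 0.242, 0.725 adjusted), and r was -0.23 without KO 3 and control 1 and 0.65 in the check with the score without trypsin genes. Reg3g had an r of 0.66 (exact permutation p = 0.136), and Reg2, Reg3a and Reg3b had values of r from 0.12 to 0.29 (exact permutation p from 0.581 to 0.835). KO 2 weighed heavily on these values. Without it, an alternative chosen after the data were seen, r was 0.98 for Reg1, 0.92 for Reg3d, 0.94 for Reg3g, 0.84 for Reg2, 0.53 for Reg3a and 0.63 for Reg3b over 5 libraries, as a description.

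Within the family, Reg1 and Reg3d varied together. Their log2 CPM correlated at a Pearson r of 0.96 over the 6 libraries (exact permutation p = 0.00139, the smallest these permutations can give, 0.0208 adjusted over 15 pairs) and a Spearman rho of 1.0 (exact permutation p = 0.00278, 0.0417 adjusted), and r was 0.84 without the 2 libraries farthest from the median of Reg1. The points share their libraries and hence the acinar content, and the permutations take no account of this or of genotype. How often pairs of other genes reach such an r was not computed. The 5 genes most like Reg1 and the 5 most like Reg3d had r from 0.991 to 0.997, so an r of 0.96 is not particular to the family. Reg1 had 52.7, 60.4 and 51.8 counts for each Reg3d count in KO 1, 2 and 3, against 45.7, 47.0 and 39.6 in control 1, 2 and 3. The KO values all exceeded the control values. This ratio was not tested, and how often ratios between other genes separate in this way was not computed. The next highest correlation was that of Reg3a with Reg3b, which did not pass after adjustment, with a Pearson r of 0.96 (exact permutation p = 0.00694, 0.052 adjusted) and a Spearman rho of 0.94 (exact permutation p = 0.0167, 0.125 adjusted), and r was 0.82 without the 2 libraries farthest from the median of Reg3a. Reg3b had 16.5, 15 and 16.5 counts for each Reg3a count in KO 1, 2 and 3, against 19.3, 16.5 and 9.15 in control 1, 2 and 3. Control 3 was the library that departed from this ratio. Reg2 with Reg3a, Reg3d with Reg3g and Reg1 with Reg3g had values of r of 0.92, 0.91 and 0.90 (exact permutation p = 0.0306, 0.0167 and 0.0125, adjusted 0.0917, 0.0625 and 0.0625), and that of Reg2 with Reg3a was -0.75 without the 2 libraries farthest from the median of Reg2.

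**Figure D5:**
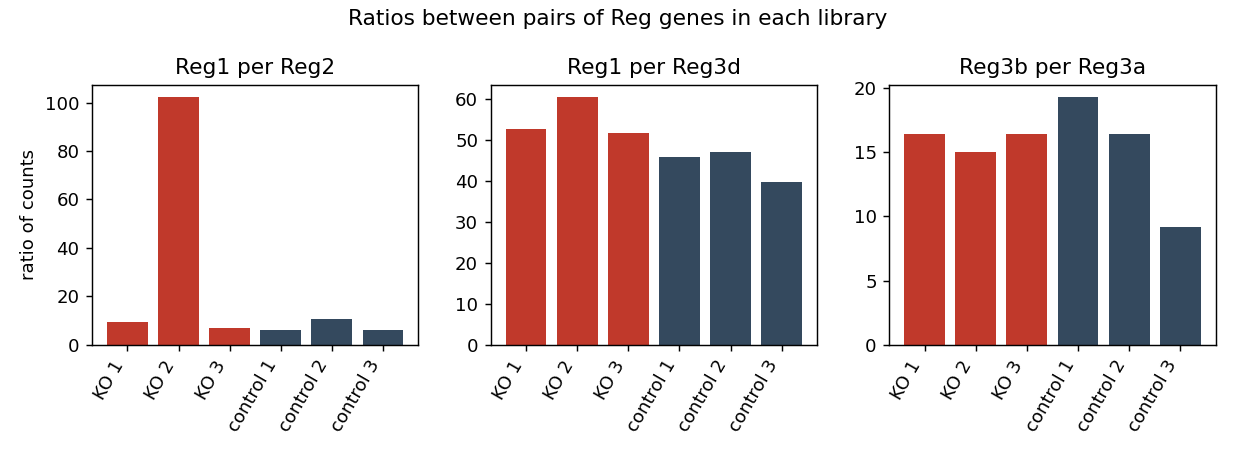
Ratio of the counts of Reg1 to Reg2, Reg1 to Reg3d and Reg3b to Reg3a in each library, KO bars left of control bars and each axis starting at 0. Reg1 per Reg2 stands at 102 in KO 2 and between 6.03 and 10.5 in the other 5 libraries.

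In KO 2, Reg2 was far lower than in the other libraries, and Reg1 was lower by less. Reg1 had 102 counts for each Reg2 count in KO 2, against 9.27 and 6.63 in KO 1 and 3 and 6.11, 10.5 and 6.03 in control 1, 2 and 3. Reg2 made up 0.947% of Reg counts in KO 2 and 8.43% to 13.8% in the other 5 libraries. Its 42.5 CPM in KO 2 lay 16.5-fold below the median of 701 CPM of the other 5, which ranged from 503 to 1980. Ranked by how far KO 2 lay below the median of the others on the log2 scale, Reg2 was 5th of 14212 genes, Reg3b 48th and Reg3a 63rd. Reg3b and Reg3a in KO 2 lay 5.21-fold and 4.75-fold below the median of the others, Reg1 and Reg3d 1.5-fold and 1.71-fold. Acinar enzymes took 30.0% of counts in KO 2, within the range of the other libraries.

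The genes ahead of Reg2 in that ranking, named after their values were seen, were Vip, Prph, Lbp and Slc5a7. Vip encodes a neuropeptide, Prph a filament protein of peripheral neurons, Slc5a7 the choline transporter of cholinergic neurons and Lbp the lipopolysaccharide-binding protein. Vip had 2 counts in KO 2, against 272 and 175 in KO 1 and 3 and 185, 62 and 549 in control 1, 2 and 3. Prph, Lbp and Slc5a7 had 0 counts in KO 2 and at least 9 in each other library. The 6 markers of fibroblasts and stellate cells summed to 0.00379% of counts in KO 2, against 0.0172% and 0.0230% in KO 1 and 3 and 0.0152% to 0.0297% in controls. The 5 endothelial markers summed to 0.0158% in KO 2, against 0.0312% and 0.0354% in KO 1 and 3 and 0.0232% to 0.0396% in controls. Duct markers were also lowest in KO 2, at 0.0270% against 0.0311% to 0.0378% in the other libraries. The shares of macrophage, lymphocyte, alpha cell and beta cell markers in KO 2 lay within the range of the other libraries. The part of these genes and cell types in the low Reg2, Reg3a and Reg3b was not tested.

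Among the pathway genes set beside the family, 0 passed the test. A list of 21 genes held Stat3-activating cytokines, their receptors and their signalling, with the interleukin-1 signalling genes Il1r1 and Myd88 beside them. Of these 21 genes, 16 were tested, with 8 higher and 8 lower in KO. Their median log2 fold change was -0.01, equal to that of all tested genes at -0.01. The 3 with the smallest p were Il6ra, the interleukin-6 receptor, at 0.31 (SE 0.115), the leukaemia inhibitory factor receptor gene Lifr at 0.48 (SE 0.17) and the interleukin-1 receptor gene Il1r1 at 0.38 (SE 0.15), with edgeR adjusted p of 0.619, 0.619 and 0.639. Stat3 had levels of 78.6, 69.7 and 85.1 CPM in KO 1, 2 and 3, against 97.3, 68.7 and 93.1 CPM in control 1, 2 and 3. Il6 had 0 counts in all libraries and Il22 a total of 4. Extl3, a glycosyltransferase proposed as a receptor of Reg proteins, had levels of 81.6, 71.2 and 74.7 CPM in KO 1, 2 and 3, against 116, 69.0 and 56.4 CPM in control 1, 2 and 3 (log2 fold change -0.08, SE 0.23, edgeR adjusted p = 0.947). Of the 5 exostosin genes, 1 was higher and 4 lower, with Ext1 at -0.12 (SE 0.087), Extl2 at 0.13 (SE 0.11) and Extl1 at -0.37 (SE 0.47).

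Of 16 acute phase and pancreatitis genes, 7 were tested, of which 1 was higher and 6 were lower, with a median log2 fold change of -0.29. The smallest p belonged to Itih4 at -1.00 (SE 0.35, edgeR adjusted p = 0.600), the secreted chaperone gene Clu at -0.51 (SE 0.32, adjusted p = 0.748) and the lipocalin gene Lcn2 at -0.65 (SE 0.425, adjusted p = 0.756). Serum amyloid genes Saa1, Saa2 and Saa3, which mark an acute phase response in liver, had 0 counts. Of the 27 tested acinar enzymes, 24 were lower in KO and 0 passed, with a median of -0.23, and the median of the 17 other acinar genes was -0.27. In the fit with the acinar score, these medians were 0.05 and -0.03 and that of the acute phase genes -0.30. Of 10 markers of the intestine, the other main site of Reg3 and Reg4 expression, 8 did not pass the filter on low counts. Cdx1, Cdx2, Muc2 and Alpi had 0 counts in all libraries, and the 2 tested were Vil1 at 0.11 (SE 0.11) and Olfm4 at 0.02 (SE 0.15).

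The genes most like Reg1, Reg3d and Reg2 in pattern were sought among 11592 tested genes by the Pearson r of log2 CPM over the 6 libraries, as a description. For Reg1 they were Klk1b3, Habp2, Pstk, Tcea3 and Fam149a (r from 0.995 to 0.997). For Reg3d they were Arpc1b, Eif3d, Inpp5b, Zfp623 and Ptp4a2 (r from 0.991 to 0.996), and for Reg2 they were Gprc5c, Naa50, Spred1, Rassf2 and Trim65 (r from 0.983 to 0.990). None of these 15 genes was on either acinar list, but the lists were short, so this does not show that the genes lie outside acinar cells. With 6 libraries and 11592 genes, high values of r can arise by chance, and how often they do was not computed. In the same search for Reg3b, Reg3a and Reg3g, added after the data were seen, the top genes were Cdk6, Rgma and Taf13 (r of 0.997, 0.994 and 0.988).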

How the data were processed

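The authors deposited raw read counts per gene, with exon lengths, for 6 islet libraries; per the labels' protocols an mRNA kit was used. STAR 2.7.9 and featureCounts 2.0.0 with the builds GRCm38.p6 and mm10 are listed in the submitters' processing notes. Which annotation release and strand setting were used was not given in the sources used here. Symbols came from a gene name table (55141 of 55401 identifiers), and coordinates from the count table. Counts were tested with edgeR 4.0.16 (R 4.3.3, TMM scaling, filterByExpr with a minimum count of 10 and total of 15, genotype as the only term, two-sided, Benjamini-Hochberg over 14212 genes). CPM and RPKM use TMM library sizes, and log2 CPM a prior count of 2. Standard errors follow from the fold change and the F statistic. Shares and ratios were compared by exact two-sided permutation tests, and correlations by exact permutation of pairings. The acinar list held 30 enzymes and no Reg gene. Named genes were the 7 members, the 3 of each list with the smallest p, and the 5 most alike to the most abundant Reg gene, the most abundant Reg3 gene and Reg2, beside single list genes named for their role and those said to be chosen after their values were seen. Members and lists were chosen with earlier results of these data known. Even the closest pair of libraries differed far beyond sampling noise (chi-square over degrees of freedom 14.4). On counts simulated for this comparison, 14038 genes were tested. Of 97 genes changed by a log2 fold of 1, 68.0% were recovered, and of 96 changed by 2, 96.9%, and 10.2% of calls were false. The changed genes were drawn at random from all tested genes. These rates therefore do not speak for the Reg genes, whose SE ran from 0.315 to 0.774. Promoter stretches are RefSeq's, and transcripts (GENCODE vM21) were aligned globally. Alternatives were other scalings, filters, covariates and denominators, a replicate block, libraries left out, DESeq2 1.42.0 and limma-voom (limma 3.58.1). Other steps used SciPy 1.17.1, NumPy 2.4.6, pandas 2.3.3 and matplotlib 3.10.9 in Python 3.11.15.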

Additional observations from a re-analysis of the deposited data

How the results depend on the processing

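The number of genes called was 10 with TMM, with RLE scaling and with library sizes that left out acinar enzymes and Reg genes. It was 300 without the filter on low counts, 48 with the acinar score, 49 with DESeq2, 6 with limma-voom, 0 with the ribosomal RNA locus as a covariate (214 genes at an unadjusted p under 0.05) and 2 to 6 with 1 library left out. With the replicate block it was 36 of 14212 tested genes, and Reg3d was then called (log2 fold change -1.02, SE 0.10, edgeR adjusted p = 0.00459). Same-numbered libraries deviated together at correlations of 0.16, -0.16 and 0.14, and libraries with different numbers at -0.24 to 0.16. This check therefore cannot tell whether same-numbered libraries pair, and no label states that they do. Without the filter, 4 Reg genes were called (Reg2, Reg3a, Reg3b and Reg3d), among 300 calls in 26297 tested genes. In that fit the spread of Reg2 was estimated with 105000 degrees of freedom in place of 9.39, so that the spread of the gene's own libraries had almost no weight. In the other 12 alternatives 0 Reg genes were called, with a lowest adjusted p of 0.163. All 14 alternatives kept 5 of the 6 genes lower in KO, and Reg3g turned to 0.0861 with the ribosomal RNA covariate, where the cause was not tested. Over the alternatives the log2 fold change ran from -1.06 to -0.34 for Reg1, from -1.39 to -0.65 for Reg3d and from -2.18 to -0.82 for Reg2. The family's share of counts stayed lower in KO, with differences of -0.518 to -0.245 percentage points with 1 library left out. The log2 ratio of the family to acinar enzymes stayed between -0.66 and -0.26, and that of Reg3b turned to 0.19 without KO 2, its range being -1.58 to 0.19. Correlations with the acinar score turned negative without KO 3 and control 1 for Reg2 (-0.475), Reg3a (-0.406), Reg3b (-0.00954), Reg3d (-0.229) and Reg3g (-0.0234). The same check with the list without trypsins, which leaves out KO 3 and control 3, gave 0.42 to 0.72 over the 6 genes, and leaving out KO 2 gave 0.53 to 0.98, both chosen after seeing the data. With 3 libraries a group, ratio tests cannot give a p below 0.1, and Reg3a and Reg3g rest on 23 to 207 and 34 to 177 counts per library.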
